A study of Rattus norvegicus with 16 samples.

Results

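Negative acute-phase proteins are plasma proteins whose hepatic output drops during inflammation. The genes of 7 of them were taken as the set described here: Alb (albumin), Ttr (transthyretin), Rbp4 (retinol-binding protein 4), Ahsg (fetuin-A), Gc (vitamin D-binding protein), Serpina6 (corticosteroid-binding globulin) and Serpina7 (thyroxine-binding globulin). The set was defined by gene symbol, and it was chosen with earlier results of these data known. Of the 17055 gene symbols counted, 6 belonged to the set. Serpina7 was not among the symbols and is not analysed here.

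Liver RNA came from male Sprague-Dawley rats aged 10 weeks, 48 rats in all and 12 per group. The groups were isoflurane with sepsis, isoflurane control, propofol with sepsis and propofol control. Sepsis was produced by cecal ligation and puncture (CLP), in which the cecum is tied and pierced so that gut contents leak into the abdomen. Control rats had the abdomen opened and the cecum lifted out and returned, so all groups shared anesthesia, mechanical ventilation and celiotomy, and no group was free of surgery. Isoflurane rats were induced and maintained with isoflurane (starting at 1.5%), and propofol rats were induced with ketamine and xylazine before propofol. Liver was taken 8 h after celiotomy, and each library was a pool of 3 rats, so that each group had 4 libraries, of 16 in total. Libraries 1 to 4 were isoflurane with sepsis, 5 to 8 isoflurane control, 9 to 12 propofol with sepsis and 13 to 16 propofol control.

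Hepatocytes secrete all of these proteins, and most of them are carriers. Albumin carries fatty acids, bilirubin and many drugs and sets most of the oncotic pressure of plasma. Transthyretin and thyroxine-binding globulin carry thyroid hormone. Retinol-binding protein 4 brings retinol from liver stores to the tissues and travels bound to transthyretin, which keeps it from being lost through the kidney. Fetuin-A binds calcium phosphate and limits calcification, vitamin D-binding protein carries vitamin D metabolites and binds free actin, and corticosteroid-binding globulin carries glucocorticoids. In inflammation cytokines shift hepatocyte transcription from these genes to positive acute-phase genes such as those of fibrinogen and haptoglobin, and several of the affected promoters use HNF4 and C/EBP factors.

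The promoter windows of the member that changed most with sepsis, Rbp4, and of Alb and Gc, members of one gene family of which Alb was called under isoflurane and Gc was not, are shown first. They are RefSeq sequences on GRCr8, read from the window of 250 bases before to 50 bases after the start site, and only the 250 bases before the start are printed. A window was found for 5 of the 6 members and not for Serpina6. Capitals mark the motif GTTAAT in Alb and Gc and a TATA box (TATAAA) in Rbp4. The Rbp4 sequence is chr1:245313552-245313801, the Alb sequence chr14:17906980-17907229, both on the minus strand, and the Gc sequence chr14:18916005-18916254 on the plus strand.
Rbp4: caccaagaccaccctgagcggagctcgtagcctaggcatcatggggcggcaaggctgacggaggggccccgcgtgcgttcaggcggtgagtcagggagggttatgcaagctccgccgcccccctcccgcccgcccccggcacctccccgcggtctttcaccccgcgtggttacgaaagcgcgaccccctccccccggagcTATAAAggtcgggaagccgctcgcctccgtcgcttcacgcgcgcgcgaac
Alb: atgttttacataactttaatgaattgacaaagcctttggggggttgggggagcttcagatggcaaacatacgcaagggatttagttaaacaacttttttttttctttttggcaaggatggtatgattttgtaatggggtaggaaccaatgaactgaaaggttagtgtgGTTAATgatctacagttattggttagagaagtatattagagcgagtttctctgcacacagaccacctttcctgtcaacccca
Gc: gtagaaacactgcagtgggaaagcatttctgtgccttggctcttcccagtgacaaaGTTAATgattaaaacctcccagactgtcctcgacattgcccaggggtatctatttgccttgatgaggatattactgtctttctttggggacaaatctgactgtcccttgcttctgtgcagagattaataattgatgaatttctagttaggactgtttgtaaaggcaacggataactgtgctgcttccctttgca

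The windows differed in composition. Rbp4 was 71.7% G and C, above 93.7% of the 33469 promoter windows of that length, while Alb was 40.7%, Ttr 43.7%, Gc 46.3% and Ahsg 48.3%, all below the median of 51.7%. Both strands were searched for 6 motifs. Relative to the start, GTTAAT began at -82 in Alb and at -194 in Gc, and 7.45% of all windows held it. TATAAA began at -50 in Rbp4 and was in 14.2% of windows. Alb also held the D-box TTANGTAA (2.24% of windows) at -245 on the opposite strand. TTGCGCAA (C/EBP, 0.170%), TGTTTAC (FOXA, 3.78%) and TTCNNNGAA (STAT, 8.87%) were in none of the 5 windows, and the Ttr and Ahsg windows held none of the 6. These are matches of letters and not measured binding.

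The libraries held 14199422 to 49937173 reads on genes, and 12060 to 13036 genes had a read. Hepatocyte markers fitted the label: 12 of 12 were detected in every group, with a summed level of 22768 to 32384 CPM (counts scaled to equal library size, here with TMM factors). Library 10, propofol with sepsis, held brain transcripts, with a summed level of 374 CPM for 14 brain and choroid plexus markers against at most 25.6 in the other libraries of its group. Ttr is also a transcript of the choroid plexus, but markers of that tissue were near 0 in library 10 (Otx2 and Kcnj13 at 0 reads, Kl and Folr1 at 1, Clic6 at 4), and its Ttr level of 2908 CPM was not the highest of its group. Leaving library 10 out changed no call on a member. Markers of several cell types moved with sepsis, and their values stand beside the results for Rbp4.

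The 6 genes took a large share of the liver transcriptome. Together they held 11.1% ± 0.261 (SD, n = 4) of reads on genes in isoflurane controls and 9.19% ± 0.436 in isoflurane with sepsis. Under propofol the shares were 9.27% ± 0.463 in controls and 8.06% ± 0.497 with sepsis. Alb had the most reads of any gene in all 16 libraries, at 5.61% to 9.03% of reads, and made up 74.7% to 78.6% of the reads of the set. Gc ranked between 12 and 16, Ahsg between 17 and 22, Ttr between 24 and 33, Rbp4 between 32 and 96 and Serpina6 between 376 and 775 by reads, which also depend on transcript length. The lowest count of any member in any library was 2294 reads, of Serpina6.

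**Figure D1:**
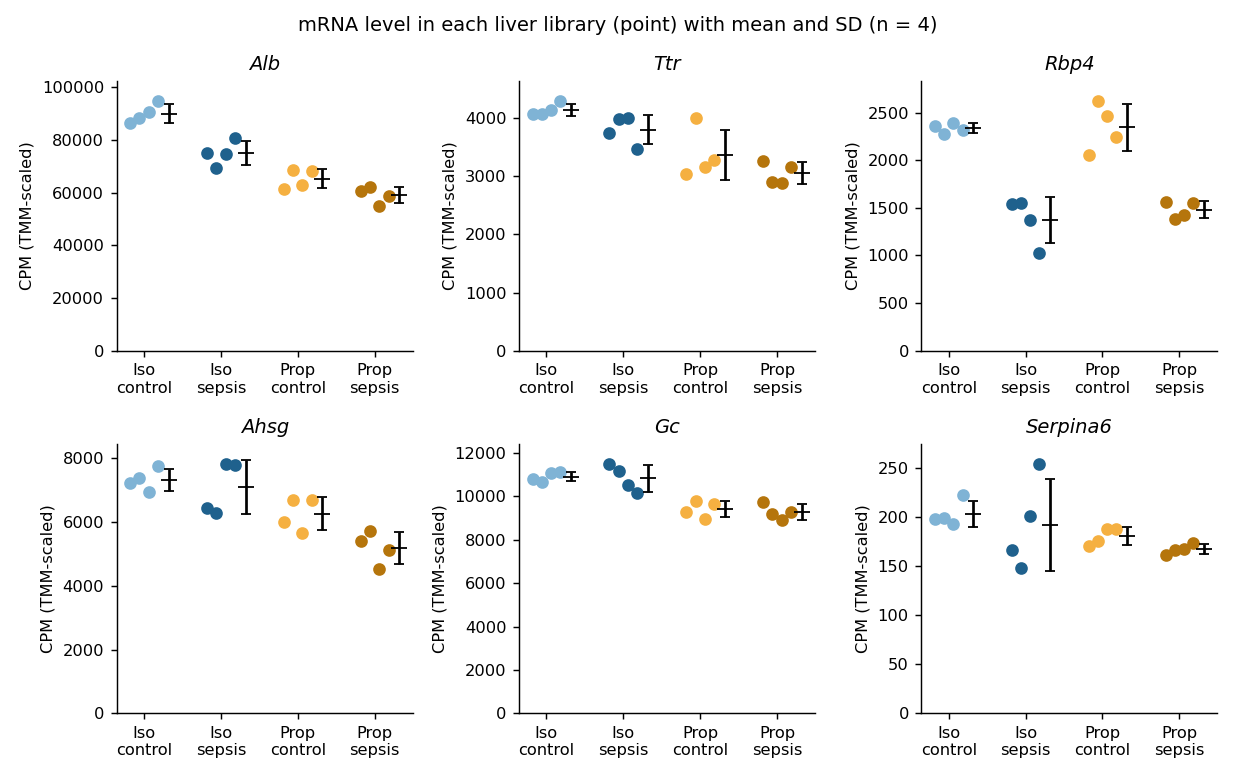
TMM-scaled CPM (linear axes from 0) of each of the 6 genes in each library, with points for libraries and a bar for mean and SD of 4 libraries per group. Rbp4 was lower in every septic library than in every control library of the same anesthetic, and Alb was higher under isoflurane than under propofol.

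Rbp4 fell with sepsis under both anesthetics, to 59.3% of control under isoflurane and 63.3% under propofol, and it was the only member called under both. Its levels were 2360, 2274, 2392 and 2314 CPM in isoflurane controls and 1540, 1549, 1370 and 1025 CPM with sepsis. Every septic library was below every control, and library 4 was the lowest. In propofol controls the levels were 2053, 2622, 2464 and 2241 CPM, and with sepsis 1566, 1381, 1424 and 1553 CPM, again without overlap. The log2 fold change was -0.75 (SE 0.118, adjusted p = 0.00109, edgeR) under isoflurane and -0.66 (SE 0.0824, adjusted p = 0.000277) under propofol. Among all genes tested, 10.95% had a lower log2 fold change under isoflurane and 9.66% under propofol. Without library 4 the isoflurane value was -0.64. Summed markers of neutrophils and monocytes were 199 to 508 CPM in isoflurane with sepsis and 73.1 to 78.4 in controls, with 8 of 10 tested markers called higher, and library 4 was the highest. Under propofol they were 150 to 220 against 72.5 to 103 CPM, with 7 of 10 called higher. Of the 12 markers listed, Ly6c was at 0 in every library. Hepatocyte markers, 12 tested, were called lower for 5 and higher for 1 under isoflurane and lower for 4 and higher for 1 under propofol. Their summed level overlapped between groups under isoflurane, at 30677 to 32322 CPM with sepsis against 29902 to 32384 in controls. Under propofol it was 25011 to 27352 against 22768 to 23779 CPM, and every septic library was above every control. Apob, the 1 marker called higher under each anesthetic (0.60 under both), had the highest level of the list. Its mean log2 CPM was 13.76 in isoflurane and 13.37 in propofol libraries, so it weighed most in this sum. The sum without Apob was not taken. Summed endothelial markers were 117 to 141 CPM with sepsis and 171 to 213 in controls under isoflurane (5 of 7 called lower), and 168 to 175 against 199 to 242 CPM under propofol (2 of 7 lower, 1 higher). Of 10 listed lymphocyte markers, 9 were among the symbols and only Cd8a, Nkg7 and Klrd1 had enough reads to test. These were called higher for 3 of 3 under isoflurane and for 0 of 3 under propofol. Their level was low, with a mean log2 CPM of -0.41 to -0.27 in isoflurane libraries. The whole list summed to 3.30 to 7.07 CPM with sepsis and 2.02 to 2.83 in controls under isoflurane. These marker counts stand beside 24.4% of all genes called lower and 25.7% higher under isoflurane, and 21.7% and 20.4% under propofol. Summed stellate cell markers were 318 to 363 CPM with sepsis and 369 to 386 in controls under propofol, and overlapped under isoflurane. Col3a1 had the highest level in this sum (mean log2 CPM 7.91 in isoflurane and 7.68 in propofol libraries). Of 7 tested stellate cell markers, 3 were called higher and 1 lower under isoflurane, and 1 higher and 3 lower under propofol. Dcn rose under both (1.72 and 0.96). Of 9 tested Kupffer cell markers, 4 were called higher and 2 lower under isoflurane, and 1 higher and 2 lower under propofol. Their summed level overlapped between septic and control libraries under both. Of 3 tested cholangiocyte markers, 2 were called higher under isoflurane and 1 under propofol, and 0 lower. The part of these cell types in the results was not tested, and in bulk liver fewer hepatocytes and less RNA per hepatocyte cannot be told apart.

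Alb fell under isoflurane, to 84.3% of control (95% interval 75.7 to 93.9). Isoflurane controls had 86390, 88213, 90502 and 94731 CPM and isoflurane with sepsis 75013, 69407, 74540 and 80639 CPM, and the groups did not overlap. The log2 fold change was -0.25 (SE 0.0688, adjusted p = 0.0158). Under propofol the controls had 61286, 68529, 62944 and 67994 CPM and the septic libraries 60502, 62042, 54760 and 58814 CPM. These overlapped, since library 10 lay above library 13. The level with sepsis was 90.8% of control (82.7 to 99.6), a log2 fold change of -0.14 that did not pass the test (adjusted p = 0.0867). It did pass with scaling by library totals alone (-0.19, adjusted p = 0.0179), with totals without the 10 most abundant genes (-0.17, 0.0301) and without the filter on low counts (-0.15, 0.0486).

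Ttr, the partner of Rbp4 in plasma, did not pass the test under either anesthetic. In isoflurane controls it had 4063, 4062, 4142 and 4292 CPM and with sepsis 3749, 3991, 3998 and 3468 CPM. All 4 septic libraries were below the controls, but the log2 fold change was only -0.11 (SE 0.0674, adjusted p = 0.216), or 92.9% of control (83.6 to 103). With totals without the 10 most abundant genes it was -0.17 and passed (adjusted p = 0.0454). Propofol controls had 3040, 3999, 3154 and 3287 CPM and septic libraries 3269, 2908, 2888 and 3156 CPM. Library 14 stood above the other controls, the groups overlapped, and the log2 fold change was -0.14 (SE 0.0909, adjusted p = 0.240).

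Ahsg was called lower under propofol only. Propofol controls had 6001, 6698, 5662 and 6708 CPM and septic libraries 5396, 5727, 4523 and 5134 CPM, and library 10 lay above library 15. The log2 fold change was -0.27 (SE 0.0907, adjusted p = 0.0385), or 83.1% of control (72.2 to 95.6). This call was lost when library 9, 11, 12, 13, 14 or 16 was left out (adjusted p = 0.0563, 0.0859, 0.0830, 0.0515, 0.0985 and 0.0990). Isoflurane controls had 7234, 7394, 6938 and 7768 CPM and septic libraries 6460, 6286, 7836 and 7808 CPM. Libraries 1 and 2 were below the controls and libraries 3 and 4 above them, and the log2 fold change was -0.03 (SE 0.0988, adjusted p = 0.827), its sign turning when library 1 or 2 was left out (0.02 in each case).

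Gc had the smallest differences of the set. It had 10788, 10680, 11074 and 11135 CPM in isoflurane controls and 11510, 11172, 10542 and 10141 CPM with sepsis. Propofol controls had 9271, 9770, 8975 and 9657 CPM and septic libraries 9767, 9182, 8922 and 9274 CPM. Septic libraries lay on both sides of the controls under isoflurane and overlapped them under propofol. The log2 fold change was 0.01 (95% interval -0.13 to 0.14, adjusted p = 0.946) under isoflurane, where its sign changed with the scaling, and -0.02 (-0.13 to 0.10, adjusted p = 0.805) under propofol. A change to under 91.2% or over 110% of control was outside both intervals.

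Serpina6, the member with the fewest reads, did not pass either test, and its spread was unequal. In isoflurane controls it had 199, 199, 193 and 223 CPM and with sepsis 166, 148, 201 and 255 CPM, a coefficient of variation of 24.3% in the septic group against 6.49% in the controls. Libraries 1 and 2 were below the controls and library 4 above them. The log2 fold change was -0.06 with a wide interval (-0.42 to 0.31, adjusted p = 0.788). Propofol controls had 171, 176, 188 and 189 CPM and septic libraries 162, 167, 168 and 174 CPM, which overlapped (log2 fold change -0.11, interval -0.24 to 0.02, adjusted p = 0.162). The call was gained with scaling by library totals alone (-0.16, adjusted p = 0.0420).

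In all, 2 of 6 members were called lower and 0 higher under each anesthetic, Alb and Rbp4 under isoflurane and Rbp4 and Ahsg under propofol. Over all genes tested, 24.4% were called lower and 25.7% higher under isoflurane, and 21.7% and 20.4% under propofol, and with 6 genes a count of 2 is close to these shares. Every septic library was below every control for 3 members under isoflurane, against 25.4% of all genes, and for 1 under propofol, against 21.4%. The median log2 fold change of the members was -0.08 under isoflurane and -0.14 under propofol, beside 0.01 and -0.00 over all genes.

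**Figure D2:**
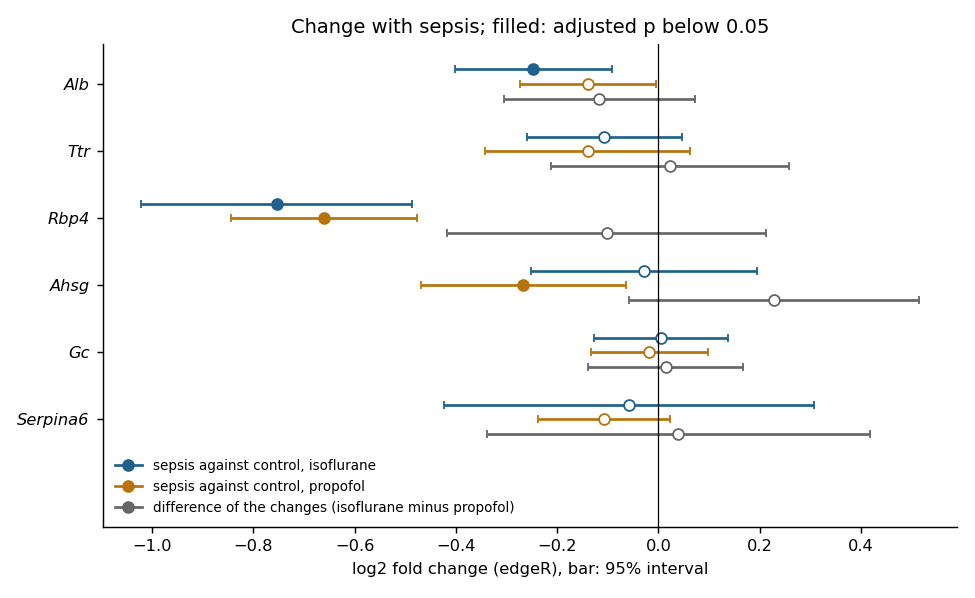
Log2 fold change with sepsis of each gene under isoflurane (blue) and propofol (orange), and the difference of these changes (grey), with 95% intervals and filled points for an adjusted p below 0.05. Rbp4 at -0.75 and -0.66 stands furthest from 0, Alb is filled under isoflurane and Ahsg under propofol only, and every grey interval spans 0.

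The difference between the anesthetics in the change with sepsis was tested directly in a fit of all 16 libraries, as isoflurane minus propofol. It was called for 0 of 6 members in edgeR (0 of 6 at an unadjusted p below 0.05, and 0 of 6 in DESeq2 and in limma-voom), while 2.72% of all genes were called. The difference was largest for Ahsg, at 0.23 (interval -0.06 to 0.51, adjusted p = 0.316), so that Ahsg, although called under propofol only, was not shown to respond differently. For Alb it was -0.12 (-0.31 to 0.07, adjusted p = 0.434) and for Rbp4 -0.10 (-0.42 to 0.21, adjusted p = 0.694). Without library 4 the Rbp4 difference was 0.01. For Ttr, Gc and Serpina6 it lay between 0.01 and 0.04.

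Ratios of reads within a library do not depend on scaling. They showed an unequal mRNA response of the genes of the 2 proteins of the retinol carrier complex, whose protein levels were not measured here. The ratio of Rbp4 to Ttr reads was 0.581, 0.560, 0.577 and 0.539 in isoflurane controls and 0.411, 0.388, 0.343 and 0.296 with sepsis. In propofol controls it was 0.675, 0.656, 0.781 and 0.682, and with sepsis 0.479, 0.475, 0.493 and 0.492. Septic libraries were below the controls under both anesthetics, and isoflurane libraries below propofol libraries in either state. The ratio of Alb to Gc reads, of the albumin family, was 8.24 ± 0.208 in isoflurane controls and 6.94 ± 0.764 with sepsis, where it ranged from 6.21 to 7.95 and was highest in library 4. Under propofol it was 6.92 ± 0.206 and 6.36 ± 0.280, with library 10 (6.76) inside the control range. The ratio of Ttr to Gc reads was 0.379 ± 0.00498 and 0.351 ± 0.0228 under isoflurane and 0.357 ± 0.0360 and 0.329 ± 0.0107 under propofol. These overlapped in both anesthetics.

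**Figure D3:**
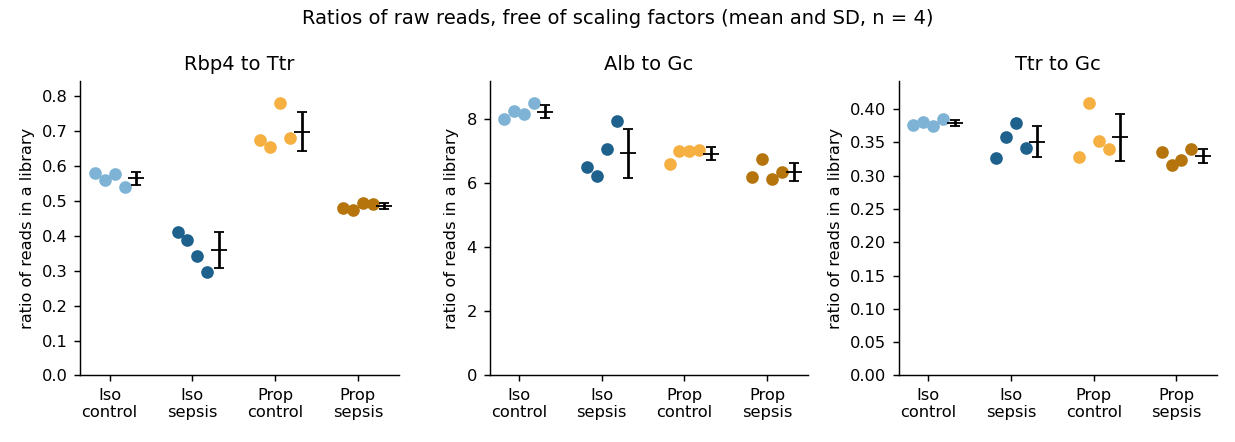
Ratio of raw reads of Rbp4 to Ttr, Alb to Gc and Ttr to Gc in each library (points, linear axes from 0), with mean and SD of 4 libraries. The Rbp4 to Ttr ratio is lower in every septic library than in every control of the same anesthetic, and the Ttr to Gc groups overlap.

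The levels were also compared between the anesthetics, in controls and in septic liver, and Alb was higher under isoflurane in both. In controls Alb was higher under isoflurane by a log2 fold change of 0.47 (SE 0.0632, adjusted p = 1.46e-04), or 138% of the propofol level. Ttr (0.30, adjusted p = 0.0105) and Gc (0.22, adjusted p = 0.00559) were also higher. Ahsg (0.23, adjusted p = 0.0845), Serpina6 (0.17, adjusted p = 0.334) and Rbp4 (-0.00, adjusted p = 0.996) did not pass. So 3 of 6 members were called, all higher, beside 26.3% of all genes called in either direction. In TMM-scaled CPM, every isoflurane control was above every propofol control for 5 members, all but Rbp4, beside 19.7% of all genes. In septic liver Alb (0.35, adjusted p = 8.5e-04), Ttr (0.32, adjusted p = 0.00520), Ahsg (0.46, adjusted p = 0.00214) and Gc (0.23, adjusted p = 0.00293) were higher under isoflurane, 4 of 6 beside 38.6% of all genes called in either direction. The same 4 did not overlap in TMM-scaled CPM, beside 12.7% of all genes. Rbp4 (-0.10, adjusted p = 0.457) and Serpina6 (0.21, adjusted p = 0.193) did not pass, and Serpina6 was called when library 2 was left out (0.33, adjusted p = 0.0298).

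Part of this depended on the scaling. With library totals alone the median log2 fold change of all genes moved by -0.145 in controls and -0.149 in septic liver, and the share of calls that were higher under isoflurane went from 49.4% to 19.6% in controls and from 50.9% to 24.9% in septic liver. With totals without the 10 most abundant genes those shares were 23.1% and 25.6%. Alb stayed called under both of these scalings in controls (0.33 and 0.35) and in septic liver (0.20 and 0.21), and so did Ahsg in septic liver (0.31 and 0.31). Ttr and Gc lost their calls in both states, with Ttr at 0.16 and 0.18 in controls and at 0.18 and 0.18 in septic liver, and Gc at 0.07 and 0.10 and at 0.08 and 0.08. All 4 kept a positive sign. The sepsis comparisons moved less, by at most -0.0679, but there too the share of calls that were higher fell, under propofol from 48.4% to 38.3% with library totals alone. Overlap between the anesthetics depended on the scaling too. By share of reads on genes, only Alb and Gc stayed higher under isoflurane without overlap in controls. In septic liver Alb, Ttr, Ahsg and Gc all overlapped, with Alb at 6.52% to 7.61% under isoflurane and 5.61% to 6.56% under propofol.

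**Figure D4:**
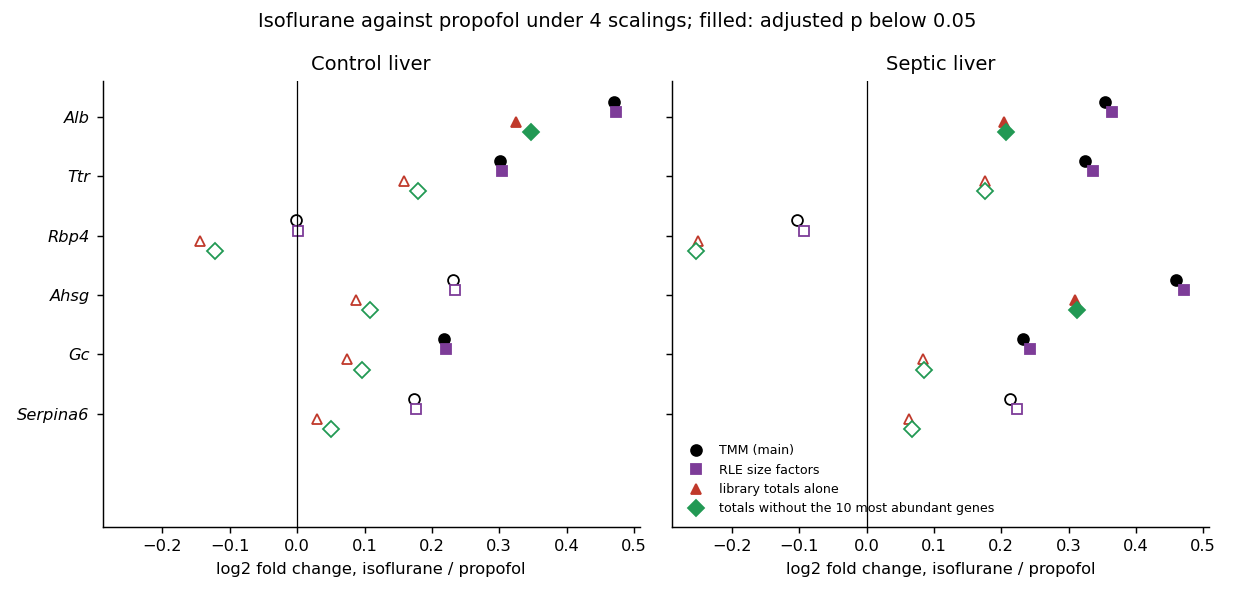
Log2 fold change of isoflurane against propofol for each gene in control and septic liver under 4 scalings (marker shapes), filled for an adjusted p below 0.05. Alb is filled under all 4 in both states, while Ttr and Gc are open and closer to 0 with either scaling by totals.

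The hepatocyte marker list, which shares no gene with the members, moved with the anesthetic in the same direction. Its summed level was 29902 to 32384 CPM in isoflurane controls and 22768 to 23779 in propofol controls, and 30677 to 32322 and 25011 to 27352 CPM with sepsis. Of its 12 genes, 6 were called higher and 0 lower in controls, and 5 higher and 2 lower in septic liver. Over all genes, 26.3% were called in either direction in controls and 38.6% in septic liver. The part of hepatocyte content in the anesthetic differences was not tested. The anesthetic cannot be told apart from the induction drugs, nor from the identifiers of the libraries, which begin differently for isoflurane and propofol with no meaning given.

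The members varied among pools in different ways. The median coefficient of variation over the 6 genes was 3.31% in isoflurane controls, 9.21% in isoflurane with sepsis, 6.94% in propofol controls and 5.73% in propofol with sepsis. In library 4, isoflurane with sepsis, Rbp4, Ttr and Gc were the lowest of the group while Alb and Serpina6 were the highest. Over 16 libraries Alb and Ahsg varied together (Pearson r of log2 CPM 0.87, and 0.81 with the group means taken out), Rbp4 and Ttr less so (0.37 and 0.68), and Rbp4 and Serpina6 went from 0.00 to -0.73 when the group means were taken out. These correlations are descriptions over libraries that share groups and scaling.

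Among 8887 genes the closest in pattern to Rbp4 over the 16 libraries were Naprt1, an enzyme of NAD synthesis from nicotinic acid (r = 0.985, 0.904 with the group means taken out), Gamt, which makes creatine (0.984 and 0.988), and Cyb5r3, a cytochrome b5 reductase (0.976 and 0.930). Closest to Alb were Apom (0.968 and 0.700), Pon1 (0.960 and 0.741) and Cfi (0.958 and 0.518), which encode apolipoprotein M, paraoxonase 1 and complement factor I. Closest to Ttr were Apoc3 (0.961 and 0.841), Atp5e (0.953 and 0.904) and Pon1 (0.937 and 0.729), and closest to Ahsg were Itih1 (0.942 and 0.800), Aplp2 (0.927 and 0.784) and RGD1310507 (0.927 and 0.796). For Gc they were Otc, of the urea cycle (0.938 and 0.569), Cd81 (0.936 and 0.551) and Prkag1 (0.931 and 0.749). For Serpina6, with lower values, they were Prlr, the prolactin receptor (0.882 and 0.867), Akr1c2 (0.878 and 0.862) and Ctsd (0.872 and 0.841).

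Relatives of the members did not respond as one. In the albumin family Afp, alpha-fetoprotein, fell under both anesthetics (-1.39, adjusted p = 0.0094, and -1.26, adjusted p = 0.0025), while Afm, afamin, stood at -0.07 and -0.18 and passed neither test. In the cystatin family, to which Ahsg belongs, Hrg, histidine-rich glycoprotein (-0.81 and -0.55), and Fetub, fetuin-B (-0.62 and -0.38), fell under both, and Kng2, a kininogen (-0.05 and 0.06), passed neither. In serpin clade A, to which Serpina6 belongs, Serpina11 (0.49 and 0.30) and Serpina3m (0.26 and 0.64) rose under both, Serpina3k fell under isoflurane (-0.44), Serpina4, kallistatin, fell under propofol (-0.23) and Serpina3n rose under propofol (0.14). Serpina1, alpha-1-antitrypsin, stood at -0.07 and -0.05 and passed neither.

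Genes that handle the cargo of these carriers moved in both directions. Of 8 tested retinol genes, 3 fell and 1 rose under isoflurane and 6 fell and 1 rose under propofol. The shares of all genes called lower were 24.4% and 21.7%, and of those called higher 25.7% and 20.4%. Dhrs3, which reduces retinal to retinol, fell by 2.02 and 1.85 on the log2 scale, Rxra, the retinoid X receptor, by 1.19 and 0.81, and Lrat, which makes retinyl esters for storage, by 0.64 and 0.83. Cyp26a1, which degrades retinoic acid, rose (1.48 and 0.83) at a low level (mean log2 CPM 0.73 in isoflurane and 0.06 in propofol libraries). Rdh10 (-0.69) and Rara (-0.32) were among those that fell under propofol. Stra6, the receptor for the Rbp4 protein, was too low to test.

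Of 6 tested thyroid hormone genes, Thrb, the main hepatic thyroid hormone receptor, fell under both anesthetics (-1.56 and -1.36) and Slc16a10, a transporter of aromatic amino acids and thyroid hormone, rose (0.72 and 1.31). Dio1, the hepatic deiodinase (-0.56), fell under isoflurane, and Thrsp, a thyroid hormone-responsive gene of lipid synthesis (-0.99), under propofol. Of 6 glucocorticoid genes, Fkbp4, a chaperone of the receptor (-1.22 and -0.76), and Nr3c2, the mineralocorticoid receptor (-1.13 and -0.83), fell under both. Under isoflurane Fkbp5 fell (-0.72) and Nr3c1, the glucocorticoid receptor, rose (0.73), and under propofol Tat, a classical glucocorticoid target, rose (1.31). Of 3 tested vitamin D genes, Cyp27b1, the activating hydroxylase, rose under both (0.93 and 2.00), Cyp2r1 fell under isoflurane (-1.16) and Cyp27a1 fell under propofol (-0.54). Cyp27b1 had few reads, with a mean log2 CPM of 0.35 in isoflurane and -0.32 in propofol libraries. Cyp2r1 was also low, at 1.00 in isoflurane libraries. None of the thyroid hormone, glucocorticoid and vitamin D genes was called for a difference between the anesthetics in the change with sepsis.

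Of 15 tested transcription factors of the liver, 5 fell and 8 rose under isoflurane, and 5 fell and 6 rose under propofol. Beside these counts, 24.4% of all genes were called lower and 25.7% higher under isoflurane, and 21.7% and 20.4% under propofol. Dbp, a factor that binds the D-box (-2.72 and -1.91), its relative Tef (-0.92 and -0.38), and Hnf4a (-1.06 and -0.73) were among those that fell under both. Cebpd (1.59 and 1.93), Cebpb (1.501 and 0.59), Nfil3, a repressor at D-boxes (1.51 and 0.90), Foxa1 (0.75 and 0.93) and Nr5a2 (0.84 and 0.64) rose under both. Foxa2 (1.18), Cebpa (1.17) and Onecut1 (0.36) rose under isoflurane and Stat3 (0.38) under propofol. Cebpa was the only one of the 15 called for a difference between the anesthetics (1.22, adjusted p = 0.0366). The Alb and Gc windows hold the motif GTTAAT shown above, and those of Rbp4, Ttr and Ahsg do not. Whether the motif bears on the change with sepsis was not tested. No binding was measured.

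Of 13 other tested negative acute-phase genes, 6 fell and 1 rose under isoflurane, and 8 fell and 0 rose under propofol, with medians of -0.12 and -0.20. Over all genes, 24.4% were called lower and 25.7% higher under isoflurane, and 21.7% and 20.4% under propofol. Klkb1, plasma prekallikrein (-0.78 and -0.82), fell under both by at least as much as Rbp4. Apoa1 (-0.73 and -0.46) and Apoa2 (-0.40 and -0.28), the main proteins of high-density lipoprotein, Lcat, which esterifies its cholesterol (-0.57 and -0.35), and Serpinc1, antithrombin (-0.18 and -0.20), also fell under both, as did Fetub. Itih1 (-0.24) and Proc, protein C (-0.17), fell under propofol. Igf1, insulin-like growth factor 1, rose under isoflurane (0.33, adjusted p = 0.0405). Tf, transferrin (-0.12 and -0.09), and Pon1 (-0.08 and -0.11) passed neither test.

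Of 18 tested positive acute-phase genes, 10 rose and 0 fell under isoflurane and 12 rose and 0 fell under propofol, beside 25.7% and 20.4% of all genes called higher, with medians of 0.25 and 0.20. The rest did not pass, among them Crp, C-reactive protein (-0.15 and 0.04), and Itih3 (-0.12 and -0.09). Among the genes that rose under both were Lcn2, lipocalin 2 (3.20 and 2.24), and Lbp, the lipopolysaccharide-binding protein (1.58 and 1.19). The 3 fibrinogen chain genes rose by 0.20 to 0.27. Hamp, hepcidin, rose under isoflurane (1.34) and stood at 0.06 under propofol, and the difference between these changes did not pass (1.27, adjusted p = 0.0772). A2m, alpha-2-macroglobulin, a major acute-phase protein of the rat, rose under propofol (0.95, adjusted p = 0.0113) and stood at 0.29 under isoflurane (adjusted p = 0.518), with a difference that did not pass either (-0.68, adjusted p = 0.371). Its level was low, with a mean log2 CPM of 0.76 in propofol and 1.12 in isoflurane libraries.

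**Figure D5:**
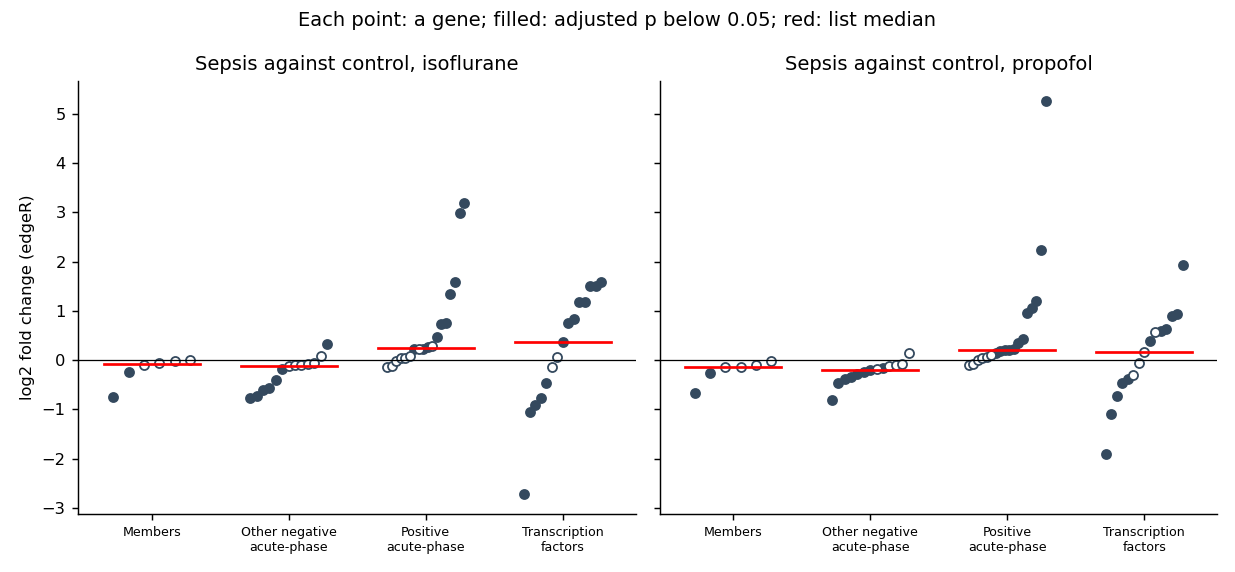
Log2 fold change with sepsis under isoflurane (left) and propofol (right) of the members, of other negative and positive acute-phase genes and of liver transcription factors, each point a gene, filled for an adjusted p below 0.05, with the list median in red. The members' medians of -0.08 and -0.14 lie beside -0.12 and -0.20 for the other negative genes and 0.25 and 0.20 for the positive genes, and the transcription factors spread widest below 0, with Dbp at -2.72 and -1.91.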

How the data were processed

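Liver RNA of 16 pools was sequenced from polyadenylated, strand-specific libraries. The authors deposited counts of reads per gene symbol, without normalization. Per the labels, the submitters' processing notes name STAR and rn5. The counter was not given in the sources used here, and versions likewise. Neither library sizes nor tests included reads outside genes (21.6% to 25.4%) or ambiguous reads (1.07% to 1.35%). The members and lists were chosen with earlier results of these data known. Septic and control libraries of each anesthetic were compared in separate fits of edgeR 4.0.16 (R 4.3.3), with TMM, filterByExpr (minimum count 10, minimum total 15) and the quasi-likelihood test. The interaction and the contrasts between anesthetics came from a fit of all 16 libraries. P-values were adjusted by Benjamini-Hochberg over all genes tested (10361, 10348 and 10621), with calls at an adjusted p below 0.05. They measure the spread between pools of rats. Standard errors were taken from the log2 fold change and the F statistic. The text names all members, from each other list the called genes with the 2 largest changes in each comparison and those needed to account for a small count, and the 3 genes closest in pattern to each member. Further list genes were named after their values were seen. Some list genes stay in the counts but are not reported here. Alternatives were RLE, library totals, DESeq2 1.42.0, limma-voom (limma 3.58.1), other limits on low counts, thinning, the threshold and leaving out each library. The edgeR script was tested on simulated data. No pair of libraries of a group agreed within sampling noise (chi-square per degree of freedom 3.469 to 101.7). Transcript lengths were not used, so shares and ranks of genes are by reads and not per length.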

Additional observations from a re-analysis of the deposited data

Results flagged for a closer look

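In groups of 4 libraries, a sample was marked when its gap to the nearest other sample, divided by the range of the group, exceeded Dixon's 95% critical value, which chance gives in about 1 in 20 groups. None of the 24 member groups and 2 of 32 marker sums met this. The summed level of brain and choroid plexus markers in library 10, propofol with sepsis, was 374.013 CPM, far above the next library (25.6 CPM). The summed level of endothelial markers in library 7, isoflurane control, was 213.072 CPM, above the next (178 CPM).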

How the results depend on the processing

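Rbp4 was called lower with sepsis in all 18 alternatives of each anesthetic (-0.82 to -0.64 under isoflurane, -0.72 to -0.60 under propofol), and Alb under isoflurane in 17 of 18, all but the threshold of 0.01. Members called under isoflurane went from 2 to 1 at that threshold. Under propofol they went from 2 to 4 with library totals alone, to 1 at 0.01, and to between 1 and 2 when a library was left out. Between anesthetics, library totals alone and totals without the 10 most abundant genes each gave 1 call in controls (against 3) and 2 in septic liver (against 4). For these lost calls the cause was not tested, beyond the shift of all genes given above. The sign turned for members close to 0. Gc with sepsis under isoflurane was -0.062 with library totals alone, -0.061 with totals without the 10 most abundant genes and -0.026 without the filter on low counts. In the interaction, totals without the 10 most abundant genes gave -0.0039 for Ttr and -0.011 for Gc. Rbp4 in controls was 0.0019 with RLE, 0.0019 with DESeq2 and 0.0047 with limma-voom. With each library left out in turn, the sepsis change under isoflurane was -0.086 to 0.024 for Ahsg, -0.017 to 0.032 for Gc and -0.23 to 0.046 for Serpina6, and under propofol -0.045 to 0.0076 for Gc. The interaction was -0.072 to 0.070 for Ttr, -0.015 to 0.037 for Gc, -0.16 to 0.0079 for Rbp4 and -0.14 to 0.15 for Serpina6. Rbp4 between anesthetics was -0.060 to 0.058 in controls and -0.16 to 0.0070 in septic liver. Over all genes, the interaction calls numbered 289, with 850 in DESeq2, 168 without the filter, 9 at 0.01 and 54 (without library 12) to 1615 (without library 1) with a library left out. At 0.01 the calls were 3200 under isoflurane, 2628 under propofol, 1455 in controls and 2228 in septic liver. No paired analysis was possible because the labels give each library its own number. Pools of 3 rats at 1 time point limit these comparisons.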
